A study of Mus musculus with 54 samples.

Results

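The 10 genes Trem2, Tyrobp, Clec7a, Itgax, Cd9, Spp1, Lgals3, Lpl, Gpnmb and Cst7 are canonical members of the disease-associated microglia (DAM) programme. They were taken by symbol from the count tables, where all 10 were found among 33280 gene symbols. RNA was sequenced from 54 bulk libraries of 24 mice, which formed 18 groups of 3. From each mouse, microglia (MG) and brain macrophages of the subdural meninges and perivascular spaces (sdCAMs, subdural CNS-associated macrophages) were sorted. After LPS the sdCAMs were taken from CD206+ cells, and the paper gives the same gate after PBS for the reporter mice described below. Wild-type (WT, C57BL/6JCrl) and Ccr2-/- mice, which carry a germline Ccr2 deletion, each gave 3 arms. Untreated mice received no gavage and a PBS injection, CTL+LPS mice received the vehicle by gavage and then LPS, and BLZ945+LPS mice received BLZ945, a CSF1R inhibitor given to deplete macrophages, and then LPS after repopulation. The Ccr2CreERT2/CreERT2:R26tdT/tdT reporter mice carry a tamoxifen-inducible Cre under Ccr2 control and a tdTomato allele. All 6 of them received BLZ945 and tamoxifen, and their MG, tdT+ sdCAMs and tdT- sdCAMs were collected after PBS or LPS. Injections were given 8 weeks after treatment and cells were collected 12 h later. Mice of both sexes were used.

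The DAM state was described in microglia around amyloid plaques and in degenerating tissue. In it, homeostatic genes are lowered and genes of phagocytosis, lysosomal function and lipid handling are raised. Its full form depends on TREM2, a lipid-sensing receptor that signals through the adaptor TYROBP (DAP12) and the kinase SYK. LPS acts through a separate receptor, TLR4, and raises inflammatory genes in microglia and macrophages.

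Promoter sequence from RefSeq (GRCm38.p6) was matched by symbol for 8 of the 10 genes, with 10 entries in all. No entry was matched for Lpl and Tyrobp. The 250 bases before the start site are shown for 4 genes that carry the LPS results below, Spp1 and Cst7, which rose, and Trem2 and Cd9, which fell. Each is written 5′ to 3′ on the gene's strand. Capitals mark matches on either strand to 3 motifs, and no matches overlapped in these 4 windows. The Spp1 window is chr5:104434861-104435110 (+), Cst7 chr2:150570165-150570414 (+), Trem2 chr17:48346151-48346400 (+) and Cd9 chr6:125494761-125495010 (-).
Spp1: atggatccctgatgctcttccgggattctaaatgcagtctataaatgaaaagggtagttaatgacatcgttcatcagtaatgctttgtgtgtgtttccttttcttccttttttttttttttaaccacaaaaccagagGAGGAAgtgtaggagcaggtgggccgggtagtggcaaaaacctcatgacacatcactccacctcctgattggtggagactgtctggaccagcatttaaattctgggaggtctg
Cst7: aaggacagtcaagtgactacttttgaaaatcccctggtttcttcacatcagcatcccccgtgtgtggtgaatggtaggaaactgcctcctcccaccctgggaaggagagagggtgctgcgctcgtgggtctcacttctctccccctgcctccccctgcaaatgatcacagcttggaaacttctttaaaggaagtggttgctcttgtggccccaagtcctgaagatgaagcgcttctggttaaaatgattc
Trem2: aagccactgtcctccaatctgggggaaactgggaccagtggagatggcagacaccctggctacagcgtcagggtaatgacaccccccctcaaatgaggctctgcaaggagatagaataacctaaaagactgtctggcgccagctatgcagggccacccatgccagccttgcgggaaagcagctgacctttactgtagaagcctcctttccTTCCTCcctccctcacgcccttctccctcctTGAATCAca
Cd9: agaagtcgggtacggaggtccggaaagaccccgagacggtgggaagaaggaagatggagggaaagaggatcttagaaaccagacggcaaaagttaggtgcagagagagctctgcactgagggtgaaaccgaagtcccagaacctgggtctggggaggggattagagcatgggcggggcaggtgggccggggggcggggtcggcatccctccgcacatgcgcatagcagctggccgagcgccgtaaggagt
The capitals in Spp1 are a PU.1-like match (GAGGAA). Trem2 held a PU.1-like match, on the opposite strand, and an AP-1-like match (TGANTCA), and Cst7 and Cd9 held none of the 3. Among the 10 entries, GAGGAA was in 4, of which 2 are overlapping Clec7a windows that share 1 match, so in 3 of 8 genes, against 23.3% of 32851 promoters of the same length. TGANTCA was in 2 (6.75% of all) and CACGTG, the E-box, in 0 (6.02%). These are matches of letters in a window and say nothing of binding.

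Libraries held 1705930 to 11330781 counts. Levels are given below as CPM, depth-scaled counts after TMM scaling for composition. The 4 MG markers P2ry12, Tmem119, Sall1 and Siglech were detected in every library, sdCAMs included. Their median level in sdCAMs was 6.76 to 36.9% of the level in MG of the same mouse in WT and Ccr2-/- mice. It was 2.55 to 16.6% in the reporter, apart from the tdT+ library of LPS mouse 5 at 84.6%. The 7 sdCAM markers summed to at most 28.8 CPM in MG and at least 905 CPM in sdCAMs. Neutrophil markers summed to 360 to 3280 CPM in WT CTL+LPS sdCAMs and 77.5 to 123 CPM in Ccr2-/- CTL+LPS sdCAMs. They summed to 598 to 2360 CPM in tdT- sdCAMs after LPS, against at most 94.2 CPM in any sdCAM library without LPS. In WT BLZ945+LPS sdCAMs they reached 999 CPM in mouse 12 and at most 56.1 CPM in mice 8 and 11. Only 2 or 3 of the 6 markers were detected in WT CTL+LPS sdCAMs, and Ly6g and Retnlg were at 0 there. Ccr2 itself, the deleted gene, lay at 17 to 51 CPM in untreated WT sdCAMs and 2.33 to 5.20 CPM in untreated Ccr2-/- sdCAMs, and at 3.08 to 8.53 CPM and 4.71 to 6.47 CPM in MG, where the labels could not be checked by it. The WT and Ccr2-/- libraries carry one batch label and the reporter libraries another, so reporter levels are not compared with those of the other genotypes. The paper's methods corrected the WT and Ccr2-/- data for batch with ComBat-seq. No such correction was made here, and a batch difference between WT and Ccr2-/- libraries was not tested. In 6 of the 9 WT sdCAM libraries the labels carry a mark for IEG correction that they do not explain. The reporter MG library of PBS mouse 175 stood apart, with 10815 genes detected and 0 counts for Spp1, Lpl, Itgax, Clec7a and Lgals3. In 2 of the 24 mice, both reporter mice after LPS, libraries of 1 mouse disagreed in their sex-linked transcripts, and 0 did after exchange of 2 library names whose index numbers are crossed in the labels. One is a tdT- and the other a tdT+ library, so values after LPS that are split by tdT rest on the names as given.

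At rest, the 10 genes spanned a wide range. Per kilobase of exonic sequence (union of exons), Tyrobp stood at 851 CPM per kb in MG of untreated WT mice, Cd9 at 417 and Trem2 at 204. The other members were far lower, with Clec7a at 7.99 CPM per kb, Cst7 at 5.69, Lpl at 2.22, Itgax at 2.11, Spp1 at 1.68, Lgals3 at 1.52 and Gpnmb at 0. Thus the receptor, its adaptor and Cd9 were already abundant in resting MG, while the 7 others were low. The order of these 3 depended on the length used, which was 4946 nt for Trem2, 2044 nt for Cd9 and 667 nt for Tyrobp. Without division by length, their means were 1010, 852 and 567 CPM.

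**Figure D1:**
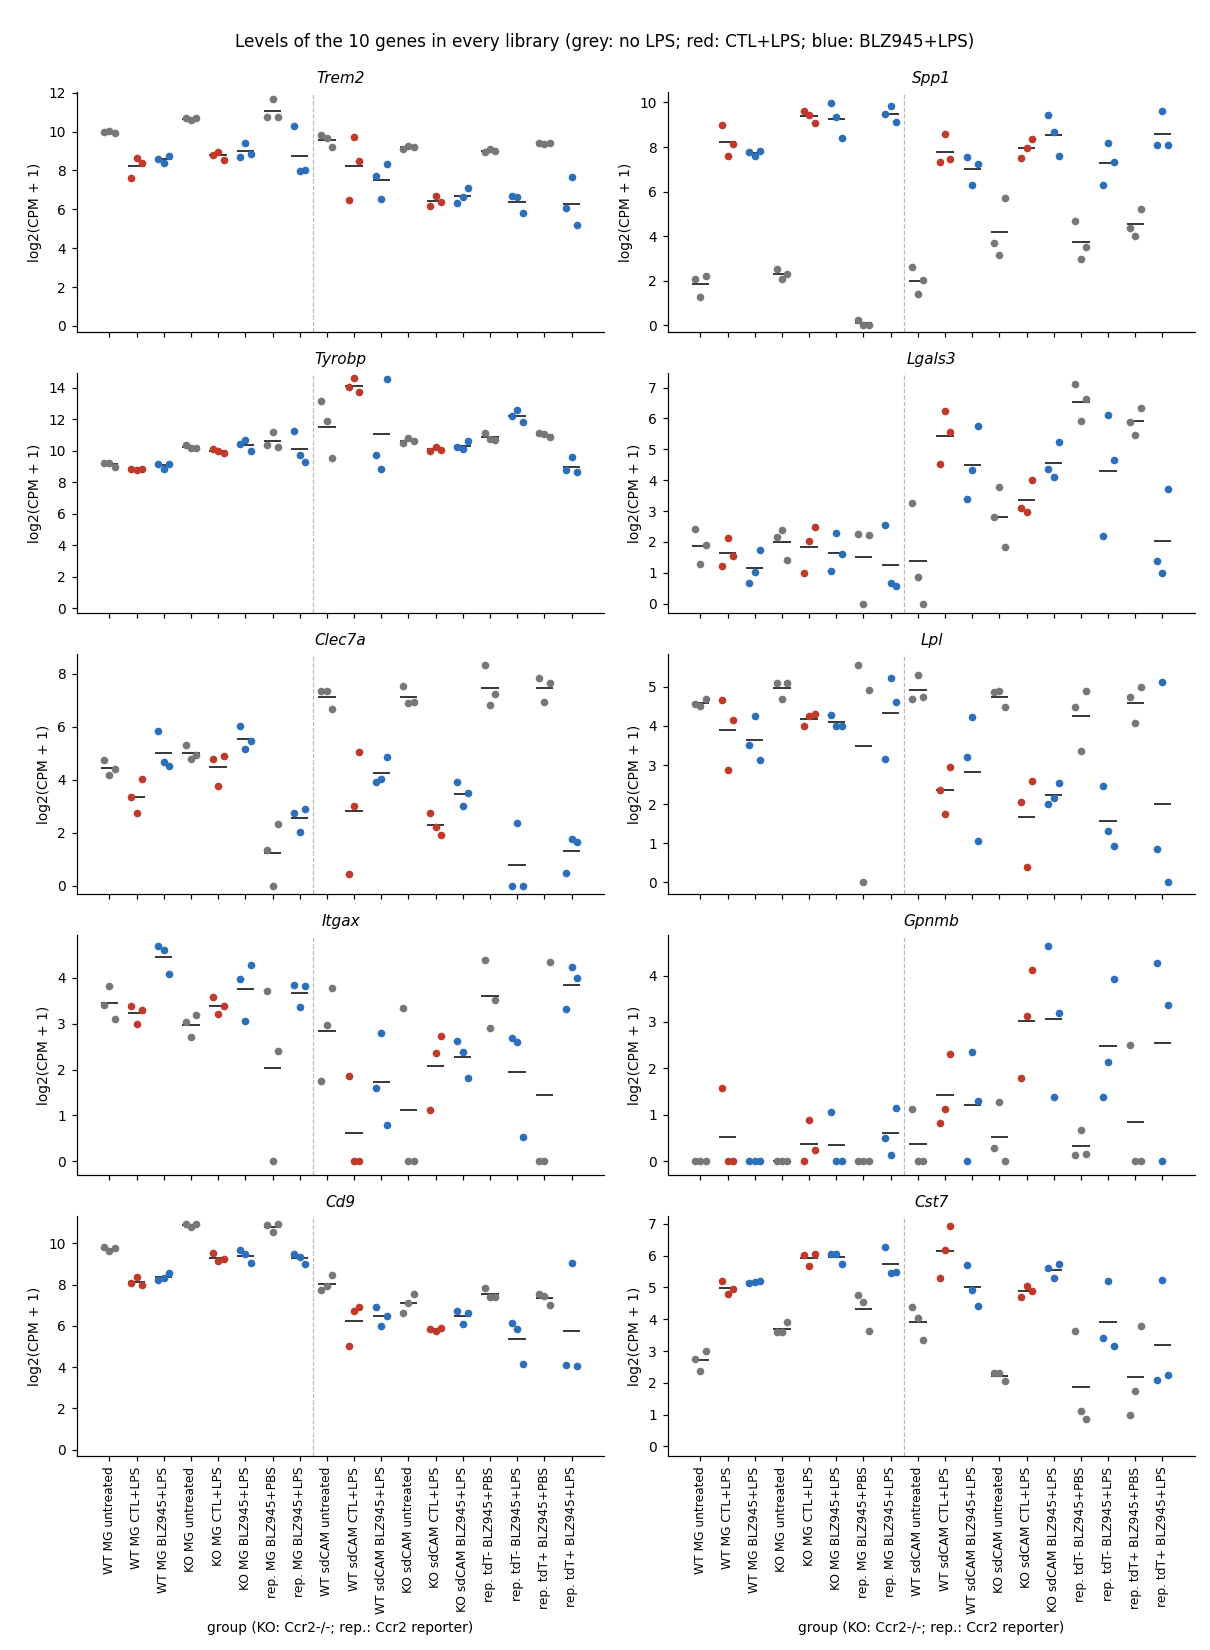
Level of each of the 10 genes in all 54 libraries, as log2(CPM + 1) on the vertical axis, with the 18 groups along the horizontal axis. Each point is 1 library, grey without LPS, red after CTL+LPS and blue after BLZ945+LPS. Spp1 lies between 1.42 and 3.68 CPM in MG of untreated WT mice and between 195 and 503 CPM after CTL+LPS.

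LPS was compared in 6 settings: MG and sdCAMs of WT and of Ccr2-/- mice (CTL+LPS against untreated) and repopulated MG and sdCAMs of the reporter (LPS against PBS, tdT+ and tdT- counts summed per mouse). In WT and Ccr2-/- mice the vehicle gavage and LPS differ together between the arms and cannot be told apart. The edgeR quasi-likelihood test with Benjamini-Hochberg adjustment over all genes tested was used throughout. Calls required an adjusted p below 0.05 together with a change of more than 1 log2 unit. In WT MG 4 of the 9 members tested were called, where 16.7% of all genes tested were called: 2 higher (9.08% of all genes) and 2 lower (7.65%). Ccr2-/- MG also gave 4 of 9, with 19.4% of all genes, 2 higher (10.5%) and 2 lower (8.89%). Repopulated reporter MG gave 1 of 9, with 1.08% of all genes called, and it was higher (0.662%). In sdCAMs, 2 of 9 were called in WT mice (6.32% of all genes), both higher (3.7%), where DESeq2 gave 3 higher and 2 lower and library totals without TMM, which shift the median of all genes by -1.55, gave 1 higher and 4 lower. The Ccr2-/- sdCAMs gave 7 of 10 (21.5% of all genes), 3 higher (10.9%) and 4 lower (10.6%), and the reporter 4 of 10 (25.1%), 1 higher (14.5%) and 3 lower (10.6%). Groups did not overlap for 44.4, 53.5 and 25.2% of all genes in WT, Ccr2-/- and reporter MG and for 35.4, 48.3 and 47.1% in the sdCAMs. Members did not move together, and they had a median log2 fold change of -0.35 for WT MG and -0.23 for Ccr2-/- MG, beside 0.023 and 0.0029 over all genes. In WT sdCAMs it was -0.71 beside -0.075, in Ccr2-/- sdCAMs -0.15 beside -0.045, in reporter MG -0.17 beside 0.033 and in reporter sdCAMs -0.23 beside 0.056. P-values measure the spread between these mice. In bulk samples a change in the share of cells that express a gene and a change in RNA per cell cannot be told apart.

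**Figure D2:**
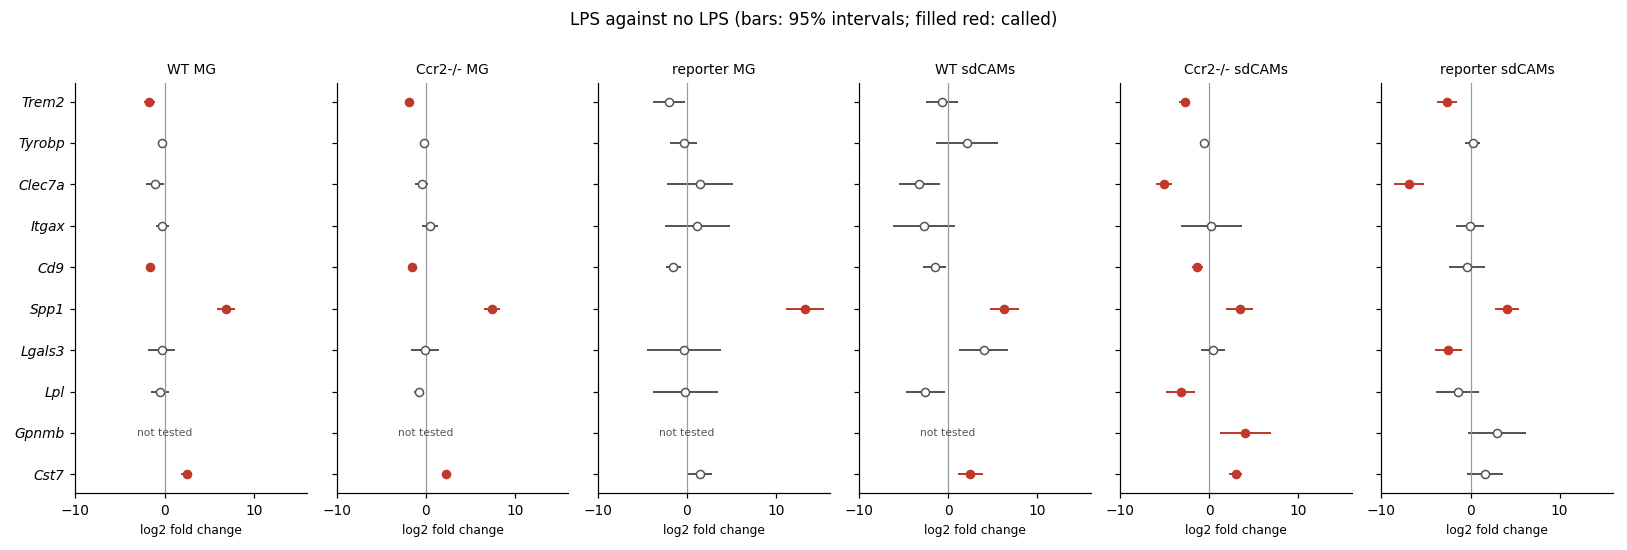
Log2 fold change of each gene with LPS (horizontal axis) in the 6 settings, as points with 95% confidence intervals from the edgeR fit; filled points were called. Spp1 was called higher in all 6 panels, and Trem2 was called lower in 4 of them.

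Trem2, the receptor, fell after LPS. In WT MG it lay at 996, 1040 and 989 CPM in untreated mice and at 198, 399 and 328 CPM after CTL+LPS. The groups did not overlap, with a log2 fold change of -1.70 ± 0.216 (SE, n = 3 mice per group; adjusted p = 0.000179), a level 3.25-fold lower. In MG of Ccr2-/- mice it went from 1680, 1530 and 1640 CPM to 444, 501 and 376 CPM, a log2 fold change of -1.86 (adjusted p = 4.19e-06). Ccr2-/- sdCAMs started lower, at 549, 615 and 587 CPM, and reached 70.9, 101 and 83.4 CPM, a level 6.87-fold lower (log2 fold change -2.78 ± 0.213, adjusted p = 1.14e-06). In the reporter, tdT+ and tdT- sdCAMs held 491 to 681 CPM after PBS and 35.1 to 201 CPM after LPS, and their sums gave a log2 fold change of -2.67 (adjusted p = 0.00283; -3.28 without LPS mouse 5). WT sdCAMs were too spread for a call, with 892, 811 and 593 CPM untreated and 88.7, 842 and 355 CPM after CTL+LPS, where mouse 4 lay inside the untreated range (log2 fold change -0.71, adjusted p = 0.61). This depended on the scaling. Under library totals without TMM, Trem2 was called lower there (log2 fold change -2.16, edgeR adjusted p = 0.0421), while the median of all genes was -1.55. Reporter MG gave 1710, 3320 and 1700 CPM after PBS and 1230, 251 and 258 CPM after LPS, which did not overlap but did not pass the test (log2 fold change -2.0, adjusted p = 0.263).

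Tyrobp, the adaptor of TREM2 and of other receptors, showed no called change with LPS. In MG of WT mice it lay at 603, 590 and 510 CPM untreated and 467, 447 and 458 CPM after CTL+LPS, a log2 fold change of -0.30 (95% interval -0.596 to -0.0125, adjusted p = 0.106). Ccr2-/- sdCAMs went from 1460, 1780 and 1580 CPM to 1020, 1220 and 1050 CPM, a log2 fold change of -0.55 that passed the adjusted p (0.0156) but not the fold limit. WT sdCAMs differed from all of these. The 6 libraries with the IEG mark held 3820 to 25400 CPM and the 3 without it 464 to 845 CPM, in every arm that had both. The marked libraries are mice 1, 4 and 6 (CTL+LPS), 12 (BLZ945+LPS) and 9 and 14 (untreated), so the mark is uneven over the arms, and the log2 fold change with LPS was 2.13 with an interval from -1.20 to 5.46 (adjusted p = 0.413).

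The same libraries held more counts in genes with short transcripts. Genes whose median coding transcript is under 700 nt, Saa3 and Tyrobp left out, took 13.5 to 44.5% of counts in the 6 marked libraries and 6.87 to 10.1% in the 3 unmarked WT sdCAM libraries. Tyrobp itself has a median transcript of 580 nt. In the reporter after LPS, the tdT- libraries held 3640 to 6140 CPM of Tyrobp with 29.4 to 31.8% of counts in short transcripts, while the tdT+ libraries of the same mice held 399 to 772 CPM with 7.37 to 8.54%. The crossed index numbers bear on this contrast, since they belong to the tdT- library of mouse 1 (4820 CPM, 31.8%) and the tdT+ library of mouse 7 (399 CPM, 7.37%). With these exchanged, the tdT- libraries would hold 399 to 6140 CPM and the tdT+ libraries 432 to 4820 CPM, which overlap. Among the other sdCAM libraries, Ccr2-/- BLZ945+LPS mouse B4f had 1560 CPM with 14.4%, above the 13.5% of marked mouse 14. The part of transcript length in the level of Tyrobp was not tested.

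**Figure D3:**
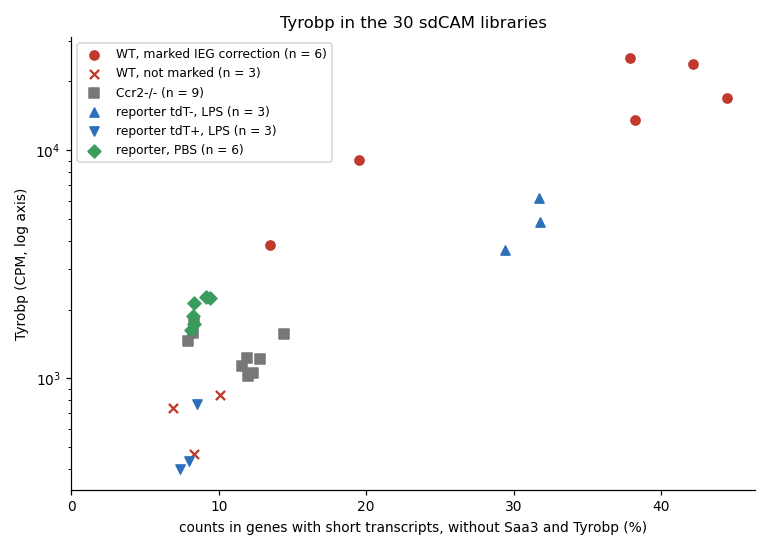
Tyrobp (CPM, log axis) against the percent of counts in genes with short transcripts, without Saa3 and Tyrobp, for the sdCAM libraries. Each point is 1 library; the 6 WT libraries with the IEG mark (3820 to 25400 CPM) and the 3 tdT- libraries after LPS (3640 to 6140 CPM) lie between 13.5 and 44.5% on the horizontal axis, and of the other libraries Ccr2-/- BLZ945+LPS mouse B4f (1560 CPM) reaches farthest, at 14.4%.

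Clec7a, Itgax and Cd9 encode surface proteins. Clec7a (Dectin-1), a receptor for fungal beta-glucans that also signals through SYK, gave the steepest fall of the set in sdCAMs. In Ccr2-/- sdCAMs it stood at 183, 119 and 120 CPM untreated and at 5.73, 3.69 and 2.82 CPM after CTL+LPS. That is 34.4-fold lower without overlap (log2 fold change -5.10 ± 0.374, adjusted p = 8.2e-07). Reporter sdCAMs held 112 to 316 CPM in the 6 libraries after PBS and 0 to 4.13 CPM in the 6 after LPS, 119-fold lower in the sums (log2 fold change -6.89 ± 0.693, adjusted p = 0.000345; -8.09 without LPS mouse 5). In WT sdCAMs it went from 163, 162 and 99.8 CPM to 0.378, 6.99 and 31.6 CPM, again without overlap, with a log2 fold change of -3.23 that missed the threshold (adjusted p = 0.0719). Without CTL+LPS mouse 6, which held 31.6 CPM, it was -5.47 (adjusted p = 0.0387). Clec7a was also called lower there with DESeq2 (adjusted p = 0.00876) and with the IEG mark as a covariate (edgeR adjusted p = 0.0261). Other settings reached an adjusted p of 0.205. Markers of dendritic cells, which also express Clec7a and Itgax, were lower after LPS in the same sdCAM settings. The 4 genes Flt3, Xcr1, Cd209a and Zbtb46 summed to 429 to 628 CPM in untreated Ccr2-/- sdCAMs and 73.5 to 160 CPM after CTL+LPS, to 96.2 to 199 and 19.6 to 57.1 CPM in WT sdCAMs, and to 71.5 to 541 CPM after PBS and 6.11 to 38.5 CPM after LPS in the reporter. Other groups differed in these sums without a matching difference in Clec7a. Its mean was 142 CPM in untreated WT and 140 CPM in untreated Ccr2-/- sdCAMs. In Ccr2-/- sdCAMs after BLZ945+LPS the sums were 13.8 to 28.7 CPM, with a mean Clec7a of 10.5 CPM beside 4.08 CPM after CTL+LPS. Between 1 and 4 of the 4 markers were detected per library and Xcr1 was at 0 in most. The part of dendritic cells in the fall of Clec7a was not tested. MG held less Clec7a from the start. WT MG moved from 26.1, 17.2 and 19.9 CPM to 9.12, 5.66 and 15.1 CPM (log2 fold change -1.07, adjusted p = 0.0644, and -1.51 with 0.0312 without CTL+LPS mouse 6), and Ccr2-/- MG from 38.5, 26.5 and 29.4 CPM to 26.5, 12.6 and 28.8 CPM, where the groups overlapped (adjusted p = 0.272). Reporter MG had the other sign, with 1.58, 0 and 3.98 CPM after PBS and 5.78, 3.13 and 6.38 CPM after LPS, which overlapped (log2 fold change 1.46, adjusted p = 0.796).

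Cd9, a tetraspanin of the plasma membrane, fell in MG. WT MG held 890, 779 and 886 CPM untreated and 268, 326 and 250 CPM after CTL+LPS (log2 fold change -1.59 ± 0.149, adjusted p = 1.74e-05). In Ccr2-/- MG it went from 1990, 1750 and 1930 CPM to 739, 555 and 602 CPM, a log2 fold change of -1.56 (adjusted p = 7.66e-06). Reporter MG gave 1920, 1520 and 1970 CPM after PBS and 723, 641 and 509 CPM after LPS, with the same size of change and no call (log2 fold change -1.56, adjusted p = 0.0728, and -1.64 with 0.0275 without PBS mouse 175). Among sdCAMs it was called lower in Ccr2-/- mice, from 97, 138 and 187 CPM to 56.9, 52.6 and 58.1 CPM (log2 fold change -1.33, adjusted p = 0.00137). In WT sdCAMs all 3 CTL+LPS values, 32.1, 103 and 119 CPM, lay below the untreated 209, 245 and 353 CPM, and the change was not called (adjusted p = 0.111). Under library totals without TMM it was called lower (edgeR adjusted p = 0.00631), while the median of all genes was -1.55.

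The level of Cd9 in sdCAMs stood close to that of the MG markers in untreated mice. In untreated Ccr2-/- mice 1m, 3m and 5f, Cd9 in sdCAMs was 4.87, 7.91 and 9.69% of its level in MG of the same mouse, and the median MG marker 6.76, 7.16 and 9.91%. In untreated WT mice 9, 14 and 15 Cd9 was at 23.5, 31.4 and 39.9% and the median marker at 20.3, 23.6 and 36.9%. In the reporter after LPS, the tdT+ library of mouse 5 held 519 CPM of Cd9 beside 16.3 and 15.7 CPM in mice 1 and 7, and its MG markers were at 84.6% of MG. With that library in the sums, Cd9 in reporter sdCAMs had a log2 fold change of -0.42 (adjusted p = 0.749), and without it -2.10 (adjusted p = 0.016). After CTL+LPS, WT mice 1, 4 and 6 had Cd9 at 12.0, 31.5 and 47.5% and the marker at 18.4, 10.3 and 15.1%, so that Cd9 was far above the marker in mice 4 and 6. In Ccr2-/- CTL+LPS mice V1m, V2m and V4f the values stayed close, with Cd9 at 7.71, 9.48 and 9.64% and the marker at 7.57, 9.88 and 12.4%. The part of MG RNA in the Cd9 level of sdCAM libraries was not tested.

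**Figure D4:**
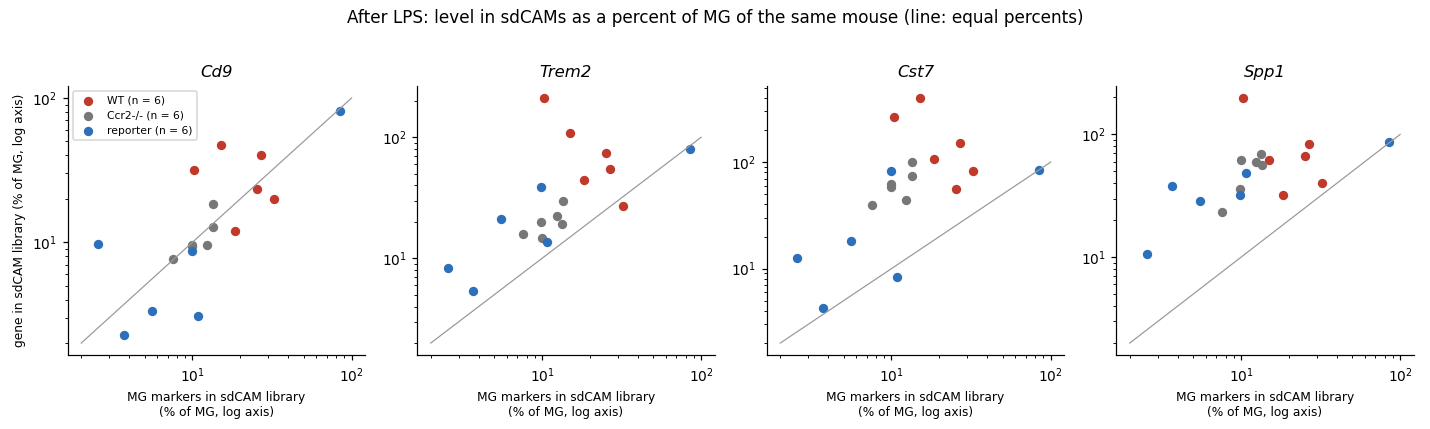
Level of single genes in sdCAM libraries after LPS as a percent of MG of the same mouse (vertical log axis) against the median percent of 4 MG markers (horizontal log axis). Each point is 1 sdCAM library and the line marks equal percents; the tdT+ library of mouse 5 lies at 84.6% on the horizontal axis, and Spp1 reaches 198% in WT mouse 4.

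Itgax (CD11c), an integrin subunit, was low and showed no called change with LPS. WT MG held 9.56, 13.2 and 7.63 CPM untreated and 9.45, 6.91 and 8.91 CPM after CTL+LPS, overlapping ranges. In Ccr2-/- MG the values were 7.25, 5.57 and 8.12 CPM and then 11.0, 8.26 and 9.47 CPM, which did not overlap (log2 fold change 0.48, adjusted p = 0.326). Untreated Ccr2-/- sdCAMs held 9.20, 0 and 0 CPM, so mouse 1m decides the comparison there. The log2 fold change with LPS was 0.24 with all libraries, 8.04 (adjusted p = 0.00969) without mouse 1m and -0.34 without mouse 3m.

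Spp1 (osteopontin), a secreted phosphoprotein that binds integrins and CD44, rose after LPS in all 6 settings. In WT MG it went from 3.19, 1.42 and 3.68 CPM to 503, 195 and 278 CPM, a 117-fold rise (log2 fold change 6.87 ± 0.415, adjusted p = 7.01e-07). MG of Ccr2-/- mice went from 4.67, 3.17 and 3.95 CPM to 776, 694 and 543 CPM, 173-fold (log2 fold change 7.44 ± 0.383, adjusted p = 1.54e-08). Ranges were thus more than an order of magnitude apart in MG of both genotypes. In repopulated reporter MG, PBS libraries held 2, 0 and 0 counts and LPS libraries 717, 903 and 553 CPM. Set against a floor of 3 counts per library, Spp1 was at least 2160-fold higher after LPS (adjusted p = 0.00609, and 0.0529 without LPS mouse 1, a fit in which 0 members were called). The floor covers counting error only.

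The rise of Spp1 in sdCAMs was called in each genotype. WT sdCAMs moved from 5.06, 1.62 and 3.06 CPM to 161, 387 and 173 CPM, 79.1-fold (log2 fold change 6.30 ± 0.69, adjusted p = 0.0016). The size depended on the scaling, with a mean after CTL+LPS of 240 CPM and of 93.3 CPM without TMM. Over the alternative settings the log2 fold change of Spp1 there lay between 4.85 and 6.82. In Ccr2-/- sdCAMs it went from 11.7, 7.91 and 51.9 CPM to 180, 250 and 325 CPM, 10.5-fold, where the untreated mouse 5f stood above its group (log2 fold change 3.40 ± 0.638, adjusted p = 0.00153). Without that library the log2 fold change was 4.70 (adjusted p = 6.6e-05). In the reporter, 6.90 to 36.5 CPM over 6 PBS libraries became 76.5 to 784 CPM over 6 LPS libraries, 16.8-fold in the sums (adjusted p = 0.00122). The highest of these, 784 CPM, was the tdT+ library of mouse 5, and without mouse 5 the log2 fold change went from 4.07 to 3.28 (adjusted p = 0.000233).

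Lgals3 (galectin-3), a beta-galactoside-binding lectin, stayed below 5 CPM in all 24 MG libraries. In WT sdCAMs it lay at 8.57, 0.812 and 0 CPM untreated and 21.9, 74.6 and 46.1 CPM after CTL+LPS, without overlap (log2 fold change 3.98 ± 1.19, adjusted p = 0.0695). Leaving out untreated mouse 9, the highest of its group, gave 6.79 (adjusted p = 0.0319). DESeq2 called Lgals3 higher there (adjusted p = 0.00472), as did edgeR with the IEG mark as a covariate (adjusted p = 0.0261). Other settings reached an adjusted p of 0.196. Reporter sdCAMs moved the other way. The PBS libraries held 43.2 to 137 CPM and the LPS libraries 0.986 to 67.8 CPM, a called log2 fold change of -2.47 in the sums (adjusted p = 0.02) that was -1.38 (adjusted p = 0.304) without the tdT+ library of LPS mouse 5 and -3.13 (adjusted p = 0.00811) without that mouse. It also missed the threshold without LPS mouse 7 (0.0589), PBS mouse 174 (0.0607) or PBS mouse 177 (0.0557). The neutrophil markers are 6 genes, of which at most 4 were detected, and Ly6g was at 0 in every sdCAM library of these groups. As given above, they were at their highest in WT CTL+LPS sdCAMs, tdT- LPS sdCAMs and WT BLZ945+LPS mouse 12. S100a9 was at 0 in the sdCAMs of WT CTL+LPS mice 4 and 6. In reporter sdCAMs after PBS, which held 43.2 to 137 CPM of Lgals3, the neutrophil markers summed to at most 4.32 CPM. The part of neutrophils in Lgals3 was not tested. Ccr2-/- sdCAMs showed overlapping values, 2.60 to 12.6 CPM untreated and 6.74 to 14.9 CPM after CTL+LPS. The WT arms differ in gavage and LPS while the reporter arms differ in LPS alone after BLZ945, and the difference between them was not tested.

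Lpl (lipoprotein lipase), which hydrolyses triglycerides of lipoproteins, was called lower with LPS in Ccr2-/- sdCAMs. There it went from 28, 28.7 and 21.5 CPM to 3.13, 0.316 and 5.02 CPM, 9.31-fold lower (log2 fold change -3.22 ± 0.701, adjusted p = 0.00404; -3.93 without mouse V4f). WT sdCAMs showed 24.9, 38.6 and 25.8 CPM and then 4.15, 2.33 and 6.76 CPM, a gap without overlap that was not called (log2 fold change -2.55, adjusted p = 0.122). It was called lower with DESeq2 (adjusted p = 0.0366) and with only the libraries compared (edgeR adjusted p = 0.0431). Other settings reached an adjusted p of 0.288. Reporter sdCAMs held 9.26 to 30.7 CPM after PBS and 0 to 4.50 CPM in 5 of the 6 LPS libraries. The other one, the tdT+ library of mouse 5, held 34.0 CPM, and leaving it out changed the log2 fold change from -1.42 (adjusted p = 0.337) to -3.78 (adjusted p = 0.0126). Lpl in Ccr2-/- MG went from 33.2, 24.9 and 33.1 CPM to 14.9, 18 and 18.9 CPM, a log2 fold change of -0.80 that passed the adjusted p (0.0103) but not the fold limit. WT MG overlapped, with 22.0 to 25.0 CPM untreated and 6.29 to 24.2 CPM after CTL+LPS.

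Cst7 (cystatin F) and Gpnmb complete the set. Cst7, an inhibitor of lysosomal cysteine proteases, rose in MG. In WT MG it went from 5.74, 4.17 and 6.92 CPM to 36.1, 27.0 and 30.1 CPM, 5.54-fold (log2 fold change 2.47 ± 0.219, adjusted p = 1.19e-05), and in Ccr2-/- MG from 11.1, 11.1 and 14.2 CPM to 63.2, 50.4 and 65.7 CPM, 5.00-fold (adjusted p = 1.1e-06). Ccr2-/- sdCAMs rose from 3.97, 3.95 and 3.17 CPM to 25.0, 31.7 and 28.9 CPM, 7.69-fold (log2 fold change 2.94, adjusted p = 7.76e-06). These 3 pairs of groups were far apart. In WT sdCAMs the values 19.9, 15.4 and 9.19 CPM became 38.1, 71.1 and 121 CPM, 5.67-fold (adjusted p = 0.0362). That call did not survive leaving out CTL+LPS mouse 4 (0.0816) or 6 (0.152) or untreated mouse 9 (0.0719), 14 (0.116) or 15 (0.118), nor library totals without TMM, where the log2 fold change was 1.19 (adjusted p = 0.278). Reporter MG (11.4 to 26.3 CPM after PBS, 43 to 76.2 CPM after LPS) did not overlap and was not called (adjusted p = 0.297).

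Gpnmb, a transmembrane glycoprotein of lysosomes and phagosomes, was at or near 0 in MG. Of the 24 MG libraries, those with the most counts were WT CTL+LPS mouse 1 with 24 and reporter LPS mouse 7 with 13, and the gene did not pass the filter on low counts in MG. In Ccr2-/- sdCAMs it went from 0.209, 1.40 and 0 CPM to 2.48, 7.79 and 16.5 CPM, 16.4-fold (log2 fold change 4.03 ± 1.26, adjusted p = 0.0296). The ranges did not overlap, but the call was lost without any 1 of mice 1m (adjusted p = 0.1), 5f (0.0741), V2m (0.0533) and V4f (0.109), while without mouse 3m the log2 fold change was 6.20 (adjusted p = 0.0139). Reporter sdCAMs held 0 to 4.64 CPM after PBS and 0 to 18.4 CPM after LPS, overlapping ranges without a call (adjusted p = 0.146). In WT sdCAMs no library was above 4.14 CPM.

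Repopulation after BLZ945 was compared among mice that all received LPS (BLZ945+LPS against CTL+LPS). No member was called by edgeR in any of the 4 comparisons. In WT MG 2 of 9 members had an unadjusted p under 0.05, as had 776 of all 11789 genes. DESeq2 called 2 members there and 49 genes in all, and edgeR called 0.0763% of all genes. In Ccr2-/- MG 2 of 9 members and 769 of 11558 genes had an unadjusted p under 0.05. DESeq2 called 0 members there and 27 genes in all (edgeR 0.0173% of all genes). In WT sdCAMs 1 of 9 members and 758 of 10504 genes had an unadjusted p under 0.05, and DESeq2 called 0 members and 11 genes. In Ccr2-/- sdCAMs these were 4 of 10 members and 998 of 11941 genes, and DESeq2 called 1 member and 63 genes. In both sdCAM comparisons edgeR called 0% of all genes. Median log2 fold changes of the members were 0.25 in WT MG, 0.11 in Ccr2-/- MG, -0.86 in WT sdCAMs and 0.53 in Ccr2-/- sdCAMs, beside -0.012, -0.0041, 0.07 and 0.0073 over all genes. In WT sdCAMs all CTL+LPS libraries carry the IEG mark and of the BLZ945+LPS libraries only mouse 12 does. The mark and BLZ945 are therefore partly confounded in that comparison.

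The members that came nearest to a call were Clec7a and Itgax. Clec7a in WT MG stood at 9.12, 5.66 and 15.1 CPM after CTL+LPS and at 56.6, 24.2 and 21.8 CPM after BLZ945+LPS. The ranges did not overlap, as for 11.7% of genes, and the log2 fold change was 1.785 with an interval from 0.896 to 2.67 (edgeR adjusted p = 0.286, DESeq2 adjusted p = 0.00534). Itgax in the same libraries stood at 9.45, 6.91 and 8.91 CPM and at 24.9, 23.5 and 16 CPM, again without overlap (log2 fold change 1.36, interval 0.761 to 1.96, edgeR adjusted p = 0.213, DESeq2 adjusted p = 0.00413). In Ccr2-/- MG Clec7a went from 26.5, 12.6 and 28.8 CPM to 64.3, 35.1 and 42.8 CPM (log2 fold change 1.06, interval 0.409 to 1.70, adjusted p = 0.619), where 9.77% of genes had no overlap. Ccr2-/- sdCAMs held 5.73, 3.69 and 2.82 CPM after CTL+LPS and 14.2, 7.02 and 10.4 CPM after BLZ945+LPS (log2 fold change 1.34, interval 0.595 to 2.09, edgeR adjusted p = 0.332, DESeq2 adjusted p = 0.0363). In that comparison 14.2% of genes had no overlap. Clec7a was thus higher after BLZ945 in all 3 of these settings without passing the edgeR test in any. In WT sdCAMs it overlapped, with 0.378 to 31.6 CPM and 13.9 to 28.1 CPM.

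The large LPS changes of Spp1 and Cst7 were present with and without BLZ945. Spp1 in WT MG was at 221, 194 and 226 CPM after BLZ945+LPS, beside 195 to 503 CPM after CTL+LPS, with a difference in log2 of -0.60 and an interval from -1.26 to 0.0716. The Ccr2-/- MG held 997, 659 and 343 CPM (difference -0.021, interval -0.612 to 0.571). Cst7 differed by 0.19 (interval -0.245 to 0.619) in WT MG and 0.018 (interval -0.370 to 0.405) in Ccr2-/- MG. For Trem2 the differences were 0.32 (interval -0.136 to 0.782) and 0.22 (interval -0.158 to 0.598). These intervals limit an effect of BLZ945 on the LPS level to under 1 log2 unit upwards in MG for all 3 genes and do not show that there is none. Tyrobp in WT sdCAMs was at 845, 464 and 23800 CPM after BLZ945+LPS, the last being the marked mouse 12. Without that mouse the log2 fold change of Tyrobp went from -1.21 to -4.91 (edgeR adjusted p = 0.0258). In that fit every CTL+LPS library is marked and no BLZ945+LPS library is, so BLZ945 and the mark cannot be told apart. It called 788 of 11309 genes.

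**Figure D5:**
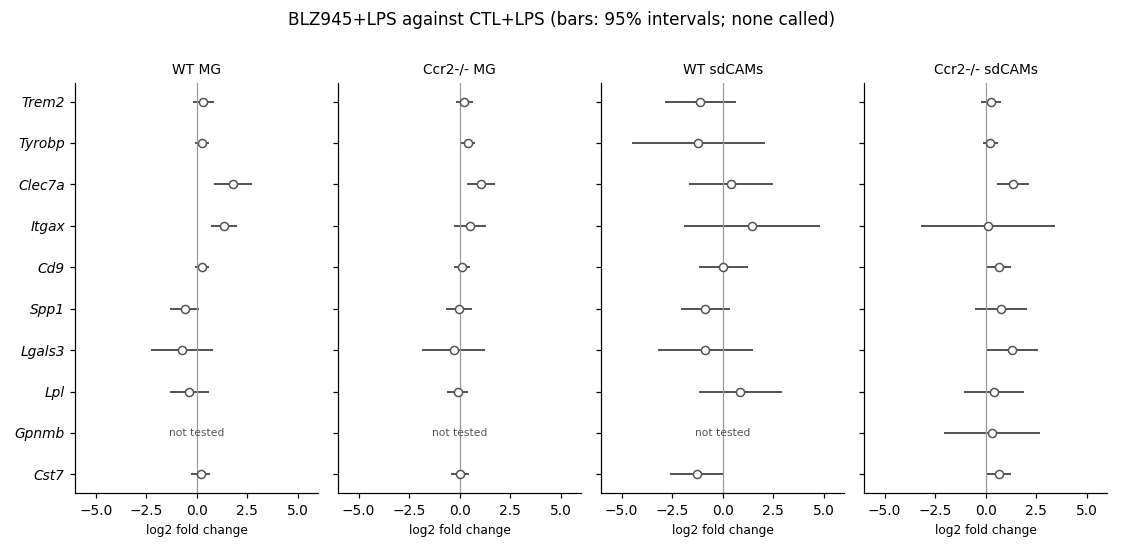
Log2 fold change of each gene with BLZ945 among mice given LPS (horizontal axis) in MG and sdCAMs of WT and Ccr2-/- mice, as points with 95% confidence intervals from the edgeR fit. No point was called; the intervals of Clec7a lie above 0 in WT MG, Ccr2-/- MG and Ccr2-/- sdCAMs.

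The cell types were compared at rest (untreated WT and Ccr2-/- mice, and reporter mice after PBS). Clec7a was higher in sdCAMs than in MG and Cd9 lower in all 3 comparisons. In WT mice 3 of 10 members were called, 2 higher (11.9% of all genes) and 1 lower (5.2%) in sdCAMs, with 17.1% of all genes called. The Ccr2-/- mice gave 5 (15%), 2 higher (8.53%) and 3 lower (6.43%), and the reporter 4 (8.95%), 3 higher (6%) and 1 lower (2.95%). Medians of the members were 0.31, 0.085 and 0.55 beside 0.029, 0 and 0.13 over all genes. Clec7a had log2 fold changes of 2.77 in WT (adjusted p = 0.0206), 2.15 in Ccr2-/- (adjusted p = 9.21e-05) and 6.67 in the reporter (adjusted p = 0.0029; 7.85 without MG of mouse 177). In WT mice that call was lost without any 1 of the sdCAM libraries of mice 9 (0.0561) and 14 (0.0551) and the MG libraries of mice 9 (0.0649), 14 (0.0913) and 15 (0.0854). Cd9 had -1.66 in WT (adjusted p = 0.0107), -3.75 in Ccr2-/- (adjusted p = 5.51e-10) and -3.36 in the reporter (adjusted p = 0.0199). Without the sdCAMs of reporter mouse 174, 175 or 177 its adjusted p there was 0.0695, 0.0815 or 0.0869.

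Calls for other members were made in some genotypes. Spp1 was higher in sdCAMs of Ccr2-/- mice (log2 fold change 2.59, adjusted p = 0.00437), which was 1.32 (adjusted p = 0.0758) without the sdCAMs of mouse 5f. In the reporter after PBS it was at least 60.7-fold higher in sdCAMs than in MG, where 0 to 2 counts were seen. Trem2 was lower in sdCAMs of Ccr2-/- mice (log2 fold change -1.48, adjusted p = 1.54e-05), and had -0.37 (adjusted p = 0.687) in WT mice and -1.91 (adjusted p = 0.0779) in the reporter. Lgals3 was higher in reporter sdCAMs (log2 fold change 5.00, adjusted p = 0.0324). That call was lost with mouse as a block (adjusted p = 0.0886) and without MG of mouse 174 (0.0643) or 177 (0.0655) or the sdCAMs of mouse 174 (0.0905), 175 (0.0618) or 177 (0.0805). Cst7 had opposite signs, higher in WT sdCAMs (9.19 to 19.9 CPM beside 4.17 to 6.92 CPM in MG, log2 fold change 1.43, adjusted p = 0.0422) and lower in Ccr2-/- sdCAMs (3.17 to 3.97 CPM beside 11.1 to 14.2 CPM, log2 fold change -1.72, adjusted p = 9.94e-06). The WT call was lost with mouse as a block (adjusted p = 0.11), under library totals (0.295) and without the sdCAMs of mouse 9 (0.161) or 14 (0.101) or MG of mouse 9 (0.116), 14 (0.161) or 15 (0.0867). The difference between the genotypes was not tested.

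Whether LPS acted differently in sdCAMs and MG was tested as an interaction. In Ccr2-/- mice 3 of 10 members were called, all more negative in sdCAMs (6.88% of all genes called, 4% more negative; median of the members -0.51 beside -0.069 over all genes). Clec7a had a difference of log2 fold changes of -4.62 ± 0.504 (adjusted p = 7.43e-06), Spp1 -4.00 ± 0.811 (adjusted p = 0.00348) and Lpl -2.39 ± 0.677 (adjusted p = 0.0341). Clec7a thus fell further and Spp1 rose less in sdCAMs of these mice. Without the untreated sdCAMs of mouse 5f the difference for Spp1 was -2.76 (adjusted p = 0.00957), and without the CTL+LPS sdCAMs of V4f that for Lpl was -3.12 (adjusted p = 0.00723). The Lpl call was lost in 8 of the fits that left out 1 library, each with an adjusted p from 0.0573 to 0.0835: sdCAMs of 1m, 3m or V1m and MG of 1m, 3m, 5f, V2m or V4f. In WT mice 0 of 10 were called by edgeR (1.32% of all genes). An unadjusted p under 0.05 was seen for 2 members and for 2344 of all 13136 genes. DESeq2 called 1 member and 867 genes in all. In the edgeR fit of WT mice Clec7a had -2.24 (adjusted p = 0.274) and Spp1 -0.66 (adjusted p = 0.687). The biological coefficient of variation was 0.57 in the WT fit and 0.392 in the Ccr2-/- fit.

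Between the genotypes, neither the LPS effect nor the BLZ945 effect was called for any member or any other gene (0% of all genes) by edgeR. These fits hold no batch term. In MG 0 of 9 members had an unadjusted p under 0.05 in either interaction. In sdCAMs 3 of 10 had one for LPS, as had 1792 of all 13258 genes, and 1 of 10 for BLZ945, as had 1332 of all genes. DESeq2 called 0 members in each of the 4 interactions. The difference in the LPS effect on Spp1 in sdCAMs (Ccr2-/- minus WT) was -2.71 with an interval from -4.65 to -0.76 (adjusted p = 0.23), and in MG 0.61 with an interval from -0.558 to 1.78. For Trem2 in MG it was -0.11 (interval -0.721 to 0.493) and for Cd9 0.075 (interval -0.396 to 0.547).

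TdTomato marks cells in which Ccr2 was active when tamoxifen was given. After PBS, Ccr2 RNA lay at 230 to 281 CPM in tdT+ and 142 to 194 CPM in tdT- sdCAMs. The 4 dendritic cell markers summed to 71.5 to 133 CPM in tdT+ and 382 to 541 CPM in tdT- sdCAMs. The part of dendritic cells in the values below was not tested. Between tdT+ and tdT- sdCAMs of the reporter after PBS, 0 of 10 members were called by edgeR, 0 had an unadjusted p under 0.05, and DESeq2 called 0. Of all 12708 genes, edgeR called 0.0236%, DESeq2 called 81 and 566 had an unadjusted p under 0.05. The median of the members was 0.21 beside 0. Trem2 lay at 681, 665 and 678 CPM in tdT+ and at 491, 547 and 504 CPM in tdT- sdCAMs, without overlap, as for 13.2% of genes (log2 fold change 0.39, interval -0.609 to 1.38). Clec7a lay at 225, 122 and 200 CPM and at 316, 112 and 148 CPM (log2 fold change -0.080, interval -1.46 to 1.3). For Spp1, 19.3, 14.9 and 36.5 CPM stood beside 24.4, 6.90 and 10.4 CPM (log2 fold change 0.75, interval -0.481 to 1.98). The interval for Clec7a holds changes of over 1 log2 unit in both directions. The fit held all reporter sdCAM libraries, those after LPS included, so these intervals carry the spread of the LPS libraries too. It did not pair the fractions of a mouse, and with mouse as a block 0 members were called.

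Other genes of the programme and of its signalling path were followed as 3 lists. Of 10 homeostatic microglial genes none was called higher with LPS in any setting. Lower calls were made for 8 in WT MG, 9 in Ccr2-/- MG and 2 in reporter MG, and for 6, 7 and 2 in the matching sdCAMs. Of all genes, 16.7, 19.4 and 1.08% were called in either direction in MG and 6.32, 21.5 and 25.1% in sdCAMs. Median log2 fold changes of the 10 genes were -1.50, -1.28 and -1.86 in MG and -2.15, -2.02 and -1.58 in sdCAMs. MG markers were detected in every sdCAM library, and the part of MG RNA in the sdCAM values was not tested. The purinergic receptor gene P2ry12 had -3.22 in WT MG (adjusted p = 1.19e-05) and -3.28 in Ccr2-/- MG (adjusted p = 1.42e-08).

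Of 24 further DAM genes, calls with LPS went both ways: 7 higher and 4 lower of 22 tested in WT MG, 7 and 5 of 23 in Ccr2-/- MG, 2 and 0 of 23 in reporter MG, 5 and 1 of 24 in WT sdCAMs, 10 and 6 of 24 in Ccr2-/- sdCAMs, and 5 and 8 of 24 in reporter sdCAMs. Of all genes, 16.7, 19.4 and 1.08% were called in either direction in MG and 6.32, 21.5 and 25.1% in sdCAMs. Medians of the further DAM genes were 0.24, 0.34 and -0.19 in MG and 0.96, 0.54 and 0.018 in sdCAMs. Cd63, a tetraspanin of late endosomes, rose in WT MG (log2 fold change 1.97, adjusted p = 1.14e-06) and Ccr2-/- MG (2.07, adjusted p = 2.4e-07). Serpine2, a protease inhibitor, fell in WT MG (-1.34, adjusted p = 6.24e-05), and the adhesion molecule gene Cadm1 fell in MG of both genotypes (-2.03, adjusted p = 0.00037, and -2.41, adjusted p = 1.52e-06). The chemokine gene Ccl3 rose in Ccr2-/- MG (3.77, adjusted p = 2.01e-06) and WT sdCAMs (6.23, adjusted p = 0.0145). In sdCAMs, Apoe, the main lipid carrier of the brain, fell in Ccr2-/- mice (-1.65, adjusted p = 6.03e-07) and in the reporter (-2.60, adjusted p = 0.00108), and Igf1, a growth factor, fell in WT mice (-2.94, adjusted p = 0.0198) and in the reporter (-4.01, adjusted p = 0.000196).

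With BLZ945, 3 of the 22 further DAM genes tested in WT MG were called, all higher, and 1 of 23 in Ccr2-/- MG. Of all genes tested, 0.0763 and 0.0173% were called in these comparisons. The list was chosen with earlier results of these data known. Apoe had log2 fold changes of 1.35 (adjusted p = 0.0385) in WT MG and 1.15 (adjusted p = 0.0395) in Ccr2-/- MG. Its mean level in WT MG was 119 CPM after CTL+LPS and 300 CPM after BLZ945+LPS. Lyz2 (lysozyme) had 1.08 (adjusted p = 0.0385) and Axl, a receptor tyrosine kinase of efferocytosis, 2.13 (adjusted p = 0.0422), both in WT MG. Apoe and Lyz2 are far higher in sdCAMs, with mean levels of 19200 and 5120 CPM in untreated WT sdCAMs beside 127 and 117 CPM in MG, and the part of sdCAM RNA in the MG change was not tested. The summed sdCAM markers in WT MG were 9.25 to 19.1 CPM after CTL+LPS and 5.73 to 14.6 CPM after BLZ945+LPS.

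Of 13 genes of TREM2 and SYK signalling, none was called with LPS in MG of any genotype or in WT sdCAMs, and their medians there lay between -0.48 and 0.05. Of all genes, 16.7, 19.4 and 1.08% were called in WT, Ccr2-/- and reporter MG and 6.32% in WT sdCAMs. In Ccr2-/- sdCAMs Malt1, a paracaspase, was called higher (log2 fold change 1.49, adjusted p = 0.0427) and Pik3cg, a catalytic subunit of phosphoinositide 3-kinase, lower (-1.53, adjusted p = 0.00475). Reporter sdCAMs had Malt1 higher (1.96, adjusted p = 0.00341) and Vav3, a guanine nucleotide exchange factor, lower (-1.34, adjusted p = 0.0269).

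Across the 18 group means of log2(CPM + 1), which share libraries, cell type and treatment, Trem2 went with Lpl (Pearson r = 0.832) and Cd9 (0.807) and against Gpnmb (-0.88) and Spp1 (-0.701). The genes with the pattern most like that of Trem2 were Abhd6 (r = 0.973), Pdlim4 (0.964) and Susd3 (0.955). For Cd9 they were Selplg (0.98), B4galt4 (0.971) and F11r (0.969), and for Spp1 Gtpbp4 (0.968), Ier3 (0.965) and Adamtsl4 (0.965). Tyrobp was most like Psenen (0.99), Smim11 (0.988) and Polr1h (0.986), Gpnmb like Cd47 (0.961), Lpl like Ndufaf7 (0.938) and Cst7 like Fbl (0.917). Lgals3, Clec7a and Itgax had looser matches, with Ftl1 (0.885), Kitl (0.879) and Poglut1 (0.858) at the top.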

How the data were processed

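RNA of sorted MG and sdCAMs was sequenced as single reads (SMARTer Ultra Low Input, Nextera XT, no molecular identifiers). Per the labels and the study's methods, the authors demultiplexed with bcl2fastq 2.20, aligned with STAR 2.7.11a and deposited raw featureCounts 2.0.8 counts per gene symbol. Mouse Gencode M36 is named beside 2 genome builds and strand is not stated, so reads of overlapping genes cannot be told apart.

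Counts were fitted here with edgeR 4.0.16 (R 4.3.3): filterByExpr, TMM scaling, quasi-likelihood test, Benjamini-Hochberg adjustment over all genes tested. Calls required an adjusted p below 0.05 and a change of more than 1 log2 unit. Groups were fitted by genotype and cell type, and interactions over the groups involved. Reporter sdCAM counts were summed per mouse. Scripts were tested on simulated data. Floors are 3 counts. DESeq2 1.42.0, other scaling and filters, the mouse block and leaving out each library were alternatives, and library totals without TMM were added after seeing the data. MG and sdCAMs came from the same mice, so mouse numbers pair them across cell types (correlations of deviations from the group means -0.127 to 0.33).

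The 10 members and the lists were chosen with earlier results of these data known. All members are named. Of each list at most 4 called genes with the smallest adjusted p are named per comparison, and the genes most like a member are those with the highest Pearson r among genes of at least 10 CPM on average. Titles of the Ccr2-/- LPS libraries name the other cell type, so the cell type label and library name were used. The tables hold no comparison columns.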

Additional observations from a re-analysis of the deposited data

Results flagged for a closer look

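In Ccr2-/- mice the LPS effect differed between sdCAMs and MG for 3 of the 10 genes, by the interaction term of the edgeR fit. The log2 fold change in sdCAMs minus that in MG was -4.62 for Clec7a (adjusted p = 7.43e-06), with -5.10 in sdCAMs beside -0.45 in MG, and every CTL+LPS sdCAM library (2.82 to 5.73 CPM) lay below every MG library (12.6 to 28.8 CPM). For Spp1 it was -4.00 (adjusted p = 0.00348), with 3.40 beside 7.44, and for Lpl -2.39 (adjusted p = 0.0341), with -3.22 beside -0.80. Spp1 rose in both cell types, so its flag is of size and not of direction. In WT mice the same differences were -2.24, -0.66 and -2.07, none of them called.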

How the results depend on the processing

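Of 72 member fold changes followed over all settings, 854 values kept direction and side of the threshold, 63 gained a call, 46 lost one and 7 reversed. Members called in LPS of WT sdCAMs, 2 in the report, were 5 with DESeq2 (3 higher, 2 lower), library totals (1 higher, 4 lower) or only the libraries compared (3 higher, 2 lower), and 4 without the low-count filter, with the IEG mark as a covariate or in marked libraries only. Library totals moved the median of all genes by -1.55 there. BLZ945 counts rose from 0 to 2 (DESeq2) and 2 (no filter) in WT MG, to 1 (no filter) in Ccr2-/- MG and to 1 (DESeq2) and 1 (no filter) in Ccr2-/- sdCAMs. LPS in reporter MG gave 2 with DESeq2. The WT interaction of cell type and LPS gave 1 (DESeq2), 3 (library totals) and 3 (no filter), and that of genotype and LPS in sdCAMs 3 without the filter.

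Leaving out 1 library gave 4 to 5 (LPS, WT MG), 1 to 2 (WT sdCAMs), 6 to 7 (Ccr2-/- sdCAMs), 0 to 2 (reporter MG), 3 to 6 (reporter sdCAMs), 0 to 1 (BLZ945, WT sdCAMs), 1 to 4, 4 to 6 and 2 to 4 (cell types in WT, Ccr2-/- and reporter), 0 to 1 and 2 to 4 (cell type by LPS, WT and Ccr2-/-) and 0 to 1 (genotype by BLZ945, sdCAMs). LPS in Ccr2-/- MG gave 4 throughout and the other 7 comparisons gave 0. Itgax reversed with LPS in Ccr2-/- sdCAMs without 3m (-0.34), 5f (-0.31) or V4f (-0.21), over a range of -0.34 to 8.04. In the Ccr2-/- cell type interaction it became 7.70 without sdCAMs of 1m, 0.22 without those of V1m and 2.15 with mouse as a block, over a range of -0.81 to 7.70 on leaving out 1 library. Cd9 in reporter sdCAMs was 0.026 without LPS mouse 7, over a range of -2.57 to 0.026.

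With mouse as a replicate block, members called between cell types were 2 (WT), 5 (Ccr2-/-) and 3 (reporter), and 0 (WT) and 3 (Ccr2-/-) in the interactions. Beside Cst7 and Lgals3 the pairing changed no other call. Exchange of the 2 library names gave 4. The causes were not tested. The 3 mice a group and the spread of WT sdCAM libraries limit what these tests can show.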

Other observations

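Among the 24 further DAM genes at rest, Apoe had log2 fold changes of 7.28 in WT mice (adjusted p = 3.6e-06) and 7.04 in Ccr2-/- mice (adjusted p = 6.27e-15), higher in sdCAMs, by the edgeR test. Lyz2 had 5.47 and 5.22 and Igf1 9.74 and 8.13 in the same comparisons. Of these 24 genes, 7 were called higher and 2 lower in WT sdCAMs (11.9 and 5.2% of all genes), and 9 and 6 in Ccr2-/- sdCAMs (8.53 and 6.43%). Serpine2, a protease inhibitor, was lower in Ccr2-/- sdCAMs (-3.83, adjusted p = 3.43e-09). Of the 13 TREM2 and SYK signalling genes, Vav3 was at a mean of 55 CPM in untreated WT sdCAMs and 73.2 CPM in untreated Ccr2-/- sdCAMs, beside 0 and 0.0366 CPM in MG. Adam10, a protease that sheds TREM2, was lower in sdCAMs of both genotypes (-1.43, adjusted p = 0.00938, and -1.30, adjusted p = 7.67e-05).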
